A study of Homo sapiens with 27 samples.

Results

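The core replication-dependent histone genes encode the 4 protein types, H2A, H2B, H3 and H4, that form the nucleosome. They were taken as every row of the deposited table whose symbol begins with HIST1 to HIST4 followed by H2A, H2B, H3 or H4, which gave 45 of 10470 genes: 13 of H2A, 14 of H2B, 9 of H3 and 9 of H4. Of these, 39 belong to the HIST1 cluster on chromosome 6, 3 to HIST2, 2 to HIST3 and 1 to HIST4. The linker histone genes (HIST1H1) were kept apart. The older symbols of the table are used here, so that HIST1H2BM, for instance, is the gene now called H2BC14.

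These genes are transcribed mainly in S phase, when new chromatin is assembled on replicated DNA. Their main mRNAs carry no poly(A) tail and end in a short conserved stem-loop, to which the stem-loop binding protein SLBP attaches. The mRNAs are known to be degraded when replication stops. Many H2A and H2B genes lie head to head and share the stretch of DNA between their starts.

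RNA came from DLD1, a line of human colorectal carcinoma cells, collected 72 h after the cells had been transfected with small interfering RNA (siRNA). The 9 groups of 3 replicates were cells given siRNA against VPS37A, VPS37B or VPS37C alone (siVPS37A, siVPS37B, siVPS37C), against each pair (siVPS37AB, siVPS37AC, siVPS37BC) or against all 3 (siVPS37ABC), cells given a mixture of non-targeting siRNAs (siCTRL), and cells left untransfected (NT). The 3 paralogs are alternative subunits of ESCRT-I, which sorts membrane proteins for lysosomal degradation. Each was targeted with 1 siRNA sequence, so that its effects on other transcripts cannot be told apart from those of the depletion, and all groups are derived from the same line. Whether the total amount of siRNA was equal between groups is not given in the sources used here. Effects of dose therefore cannot be told apart from those of the number of targets.

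The libraries were made with a targeted amplicon panel, and the values are TPM, parts of a library total of 1000000 after division by transcript length. Depth, estimated from the steps between low values, was about 5290000 to 19280000 reads per library, at which 1 read on a transcript of 500 bases is worth 0.180 to 0.653 TPM. The targeted mRNAs in the groups given their siRNA stood at 2.52 to 10.2% of the siCTRL mean for VPS37A, at 2.08 to 8.78% for VPS37B and at 17.8 to 31.8% for VPS37C. These siCTRL means were 5.80, 46.4 and 17.5 TPM. VPS37A was thus low even in siCTRL cells, and its percentages are approximate. All 8 epithelial markers sought were in the table, with medians over the libraries of 2.02 to 3150 TPM. The lowest was VIL1, at 0.81 to 3.82 TPM, which is hardly expressed. Libraries of the same replicate number deviated together, and the number that ends each library's description, called the library number here, is not balanced over the groups. A level is per unit of transcript length, but each amplicon also has its own efficiency, so an order of levels between genes is approximate. Core histone coding sequences are closely similar between genes, and how the authors assigned reads that fit several genes is not given in the sources used here.

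The stem-loops of the mRNAs are printed because they are the element through which these transcripts are known to be handled together. A stem-loop was found in the GENCODE v29 transcripts of 22 of the 45 genes, in 6 forms. Many of the other transcript models hold no sequence beyond the coding part. Capitals mark the stem and lower case the loop.
HIST1H2BE, HIST1H3H and most others of H2A, H2B and H3: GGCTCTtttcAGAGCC
HIST1H2BC, HIST1H2BD and HIST1H2BF: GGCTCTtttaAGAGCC
HIST1H2AG: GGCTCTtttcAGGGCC
HIST1H3E: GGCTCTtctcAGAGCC
HIST1H4B, HIST1H4E, HIST1H4H and HIST4H4: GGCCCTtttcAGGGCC
HIST1H4I: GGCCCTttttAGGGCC
The first form was found in 12 genes. The H4 forms differed from the others in the base pairs of the stem, and HIST1H3E and HIST1H4I each had a loop found in no other gene.

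Promoters of 4 genes are printed because they belong to the H2B genes at both ends of the changes described next, HIST1H2BM and HIST1H2BK, and to a highly expressed H3 and an H4 gene. They run from 250 bases before to 50 bases after the RefSeq start on GRCh38.p14, 5′ to 3′ on the strand of the gene. Capitals mark the octamer ATTTGCAT, CCAAT and TATAAA on either strand.
HIST1H2BM, chr6:27814772-27815071, plus strand: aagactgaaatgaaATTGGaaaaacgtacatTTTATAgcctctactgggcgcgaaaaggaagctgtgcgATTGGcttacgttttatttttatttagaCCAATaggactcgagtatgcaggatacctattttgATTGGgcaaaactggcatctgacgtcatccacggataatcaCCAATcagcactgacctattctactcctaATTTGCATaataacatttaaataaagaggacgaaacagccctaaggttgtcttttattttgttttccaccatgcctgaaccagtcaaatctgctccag
HIST1H2BK, chr6:27146809-27147108, minus strand: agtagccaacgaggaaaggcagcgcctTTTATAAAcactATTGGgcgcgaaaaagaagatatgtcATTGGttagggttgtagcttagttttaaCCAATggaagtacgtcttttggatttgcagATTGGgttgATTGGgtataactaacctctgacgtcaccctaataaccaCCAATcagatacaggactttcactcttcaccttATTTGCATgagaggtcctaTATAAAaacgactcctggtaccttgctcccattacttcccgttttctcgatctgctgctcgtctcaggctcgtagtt
HIST1H3B, chr6:26032050-26032349, minus strand: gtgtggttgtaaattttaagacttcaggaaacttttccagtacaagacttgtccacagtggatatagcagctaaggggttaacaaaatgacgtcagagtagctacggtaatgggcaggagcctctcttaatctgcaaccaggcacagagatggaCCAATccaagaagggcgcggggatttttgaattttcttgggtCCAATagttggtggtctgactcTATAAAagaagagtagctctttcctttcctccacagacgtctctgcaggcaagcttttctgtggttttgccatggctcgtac
HIST1H4B, chr6:26027234-26027533, minus strand: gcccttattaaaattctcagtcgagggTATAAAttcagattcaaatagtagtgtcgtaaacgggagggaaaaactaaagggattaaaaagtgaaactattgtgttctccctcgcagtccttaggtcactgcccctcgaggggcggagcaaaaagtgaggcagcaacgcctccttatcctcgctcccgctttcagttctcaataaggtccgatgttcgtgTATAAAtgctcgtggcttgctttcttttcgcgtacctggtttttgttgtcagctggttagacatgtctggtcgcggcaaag
The octamer began 48 bases before the start of HIST1H2BM and 46 bases before that of HIST1H2BK. Both windows hold it in the sense direction, and both also reach over the start of the H2A gene on the opposite strand. HIST1H2BK, but not HIST1H2BM, has TATAAA on its own strand near the start, beginning 27 bases before it, and in HIST1H3B and HIST1H4B it begins 32 and 31 bases before.

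RefSeq promoters were at hand for 40 of the 45 genes, and HIST1H2AH, HIST1H3I, HIST1H3J, HIST1H4A and HIST1H4C are named only. The octamer, known in H2B promoters as a binding site of the factor OCT1, was on either strand of 10 of 14 H2B and 9 of 12 H2A promoters, of 1 of 7 H3 promoters and of 0 of 7 H4 promoters. It was in 1.77% of all 35116 promoters of the same length. CCAAT was in all 12 H2A, 14 H2B and 7 H3 promoters and in 2 of 7 H4 promoters, beside 34.6% of all promoters. TATAAA was in 8 of 12 H2A, 10 of 14 H2B, 6 of 7 H3 and 4 of 7 H4 promoters, beside 11.5% of all promoters. Partner genes share these windows, so that the counts of H2A and H2B are not independent.

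Levels of the 45 genes spanned a wide range. Means over all 27 libraries ran from 1.55 TPM for HIST1H2BN to 7227 TPM for HIST1H4C, with 15 genes at 1000 TPM or more and 13 below 100 TPM. The 5 highest genes held 48.5% of the summed TPM and the 10 highest 72.9%. Within H2B, HIST1H2BD averaged 5330 TPM and HIST1H2BG 3.02 TPM.

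In each group that had received the VPS37A siRNA, the summed level of the 45 genes was lower in every library than in any siCTRL library. It was 40959, 33746 and 29184 TPM in the siVPS37ABC libraries, against 79331, 78362 and 64659 TPM in the siCTRL libraries. The groups did not overlap, and the sum fell in siVPS37ABC libraries to 46.7% of the siCTRL mean, which is 3.46% of all TPM in siVPS37ABC and 7.41% in siCTRL. Within a replicate number the siVPS37ABC sum was 51.6, 43.1 and 45.1% of the siCTRL sum. In bulk RNA, fewer cells in S phase and less histone mRNA per cell cannot be told apart.

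The other groups fell on either side of a gap. The means were 48130 ± 3368 TPM in siVPS37A, 42839 ± 3620 in siVPS37AB and 46635 ± 2211 in siVPS37AC cells (SD, n = 3). They were 69743 ± 6354 TPM in siVPS37B, 63591 ± 6182 in siVPS37C and 62384 ± 5763 in siVPS37BC cells, against 74117 ± 8205 in siCTRL and 68941 ± 8830 in NT cells (SD, n = 3). The highest library of a group with the VPS37A siRNA had 50330 TPM, and the lowest library of any other group had 56071 TPM. Within a replicate number, however, the sums were also below siCTRL in siVPS37C, at 85.2, 85.1 and 87.3%, in siVPS37BC, at 84.9, 81.3 and 86.7%, and in siVPS37B, at 95.8, 89.3 and 97.8%. NT sums were 97.8, 88.5 and 92.7% of siCTRL in the same way. The groups with the VPS37A siRNA other than siVPS37ABC stood at 56.9 to 70.4%.

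Library numbers divide the groups in part. In numbers 80, 84 and 89, the siVPS37AB sums were 45129, 44723 and 38665 TPM, against siVPS37BC sums in the same numbers of 67364, 63718 and 56071 TPM. In numbers 81 and 85, siVPS37A sums were 49807 and 50330 TPM, against 75960 and 70009 TPM in siVPS37B. In number 88, siVPS37ABC replicate 3 had 29184 TPM and siVPS37AC replicate 3 had 45506 TPM, against 79331 and 78362 TPM in siCTRL replicates 1 and 2. The libraries with the VPS37A siRNA were the lower ones in each of these numbers. In number 88, however, replicate 3 stands against replicates 1 and 2, and siCTRL replicate 3, in number 603, had 64659 TPM. No siVPS37A, siVPS37AB or siVPS37BC library shares a number with siCTRL. A model with the library number as a term therefore compares these groups with siCTRL only by way of other groups. siVPS37ABC and siVPS37AC share only number 88 with siCTRL, so with this term a difference between replicates can enter their changes.

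**Figure D1:**
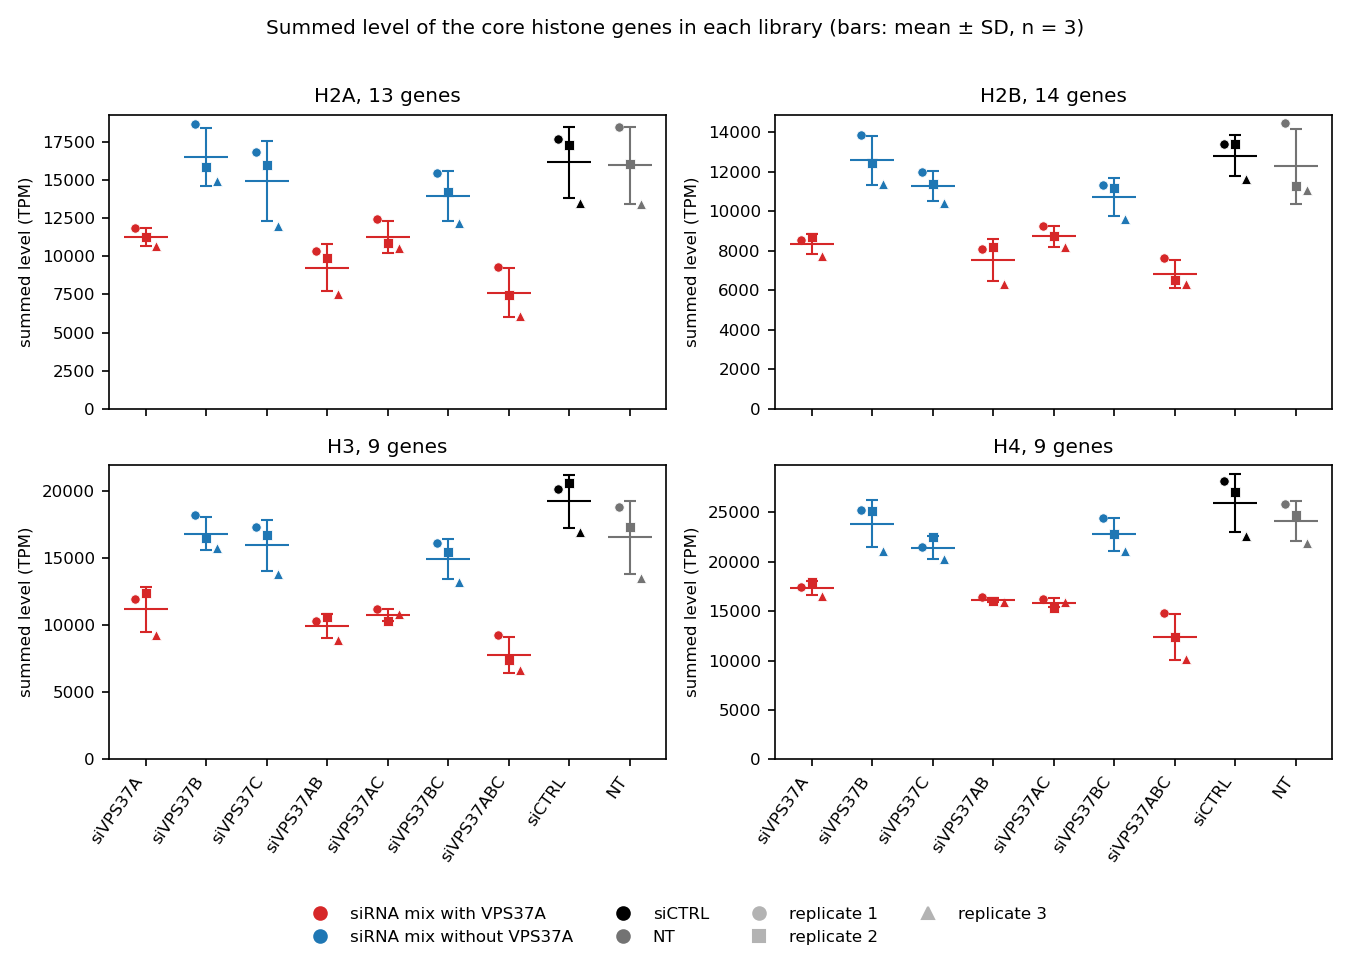
Summed level in TPM of the genes of each core histone type in every library, with the groups given siRNA on the left, then siCTRL and NT. Points are single libraries, with 1 shape per replicate number, and bars are the mean ± SD of 3 libraries. In all 4 types the siVPS37ABC mean is the lowest, at 40.4 to 53.3% of the siCTRL mean.

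All 4 types shared the pattern. In siVPS37ABC cells, H2A mRNA summed to 7611 ± 1603 TPM, against 16138 ± 2320 TPM in siCTRL cells (SD, n = 3), or 47.2%. H2B summed to 6822 ± 728 TPM in siVPS37ABC, against 12809 ± 1024 TPM in siCTRL, or 53.3%. H3 summed to 7774 ± 1332 TPM in siVPS37ABC, against 19238 ± 1979 TPM in siCTRL, or 40.4%. The plot of summed levels shows no overlap between these groups in any type, and the differences between the types were not tested. H4, the type with the highest sum, had 12422 ± 2318 TPM in siVPS37ABC and 25932 ± 2941 TPM in siCTRL, or 47.9%.

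Single genes were compared as differences of log2(TPM + 1) in a limma model of all 27 libraries, with Benjamini-Hochberg adjusted p-values over the 6458 genes whose mean reached 10 TPM, and a threshold of 0.05. This filter passed 42 of the 45 genes. HIST1H2BG, HIST1H2BN and HIST1H3D did not pass it and are given from the same model without the filter. Replicate numbers have no term in this model and enter only where a replicate block is named.

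In siVPS37ABC cells, 34 of the 42 genes fell and 0 rose, while 8.32% of all tested genes fell and 13.6% rose. Before adjustment, 40 of the 42 had a p under 0.05 and a negative change, as did 13.5% of all tested genes, and 0 a positive one. The median log2 change of the 42 genes was -1.14, beside 0.03 over all tested genes. Every siVPS37ABC library lay below every siCTRL library in 32 of the 42 genes and in 14.4% of all tested genes. By type, 11 of 13 H2A genes, 7 of 12 H2B genes, 7 of 8 H3 genes and 9 of 9 H4 genes fell, with medians of -1.13, -1.09, -1.21 and -0.98 on the log2 scale.

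**Figure D2:**
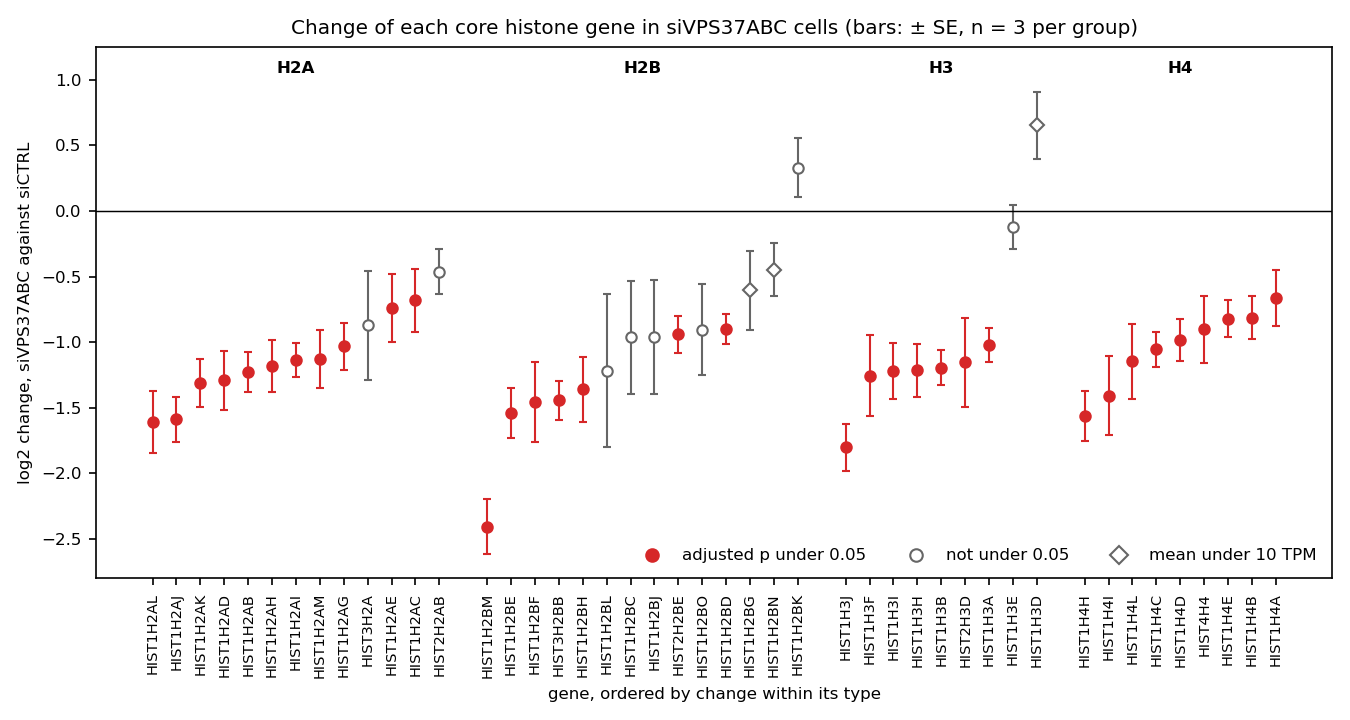
Log2 change of each core histone gene in siVPS37ABC against siCTRL cells, ordered within its type, with bars of ± SE (n = 3 per group). Filled points have an adjusted p under 0.05, open points do not, and diamonds mark the genes with a mean under 10 TPM. The lowest point is HIST1H2BM at -2.41, and HIST1H2BK and HIST1H3D are the genes above 0.

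Among the H2A genes, HIST1H2AM had the highest mean level. It measured 3316, 2428 and 1979 TPM in siVPS37ABC cells, against 6874, 5663 and 4291 TPM in siCTRL cells. The groups did not overlap, and the log2 change was -1.13 ± 0.22 (SE, limma adjusted p 0.000455). HIST1H2AL fell furthest in this type, with 159, 112 and 66.5 TPM in siVPS37ABC, against 370, 318 and 293 TPM in siCTRL. Its lowest siCTRL library was well above its highest siVPS37ABC library (log2 change -1.61 ± 0.24, limma adjusted p 2.00e-05).

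HIST2H2AB, in the HIST2 cluster on chromosome 1, changed least among the H2A genes. It had 930, 703 and 600 TPM in siVPS37ABC, against 956, 1166 and 918 TPM in siCTRL. One library of siVPS37ABC lay inside the siCTRL range, and the log2 change of -0.46 ± 0.17 had a limma adjusted p of 0.0506, or 0.00337 with the replicate number as a block. HIST3H2A, with a log2 change of -0.87, was the other H2A gene that did not pass (limma adjusted p 0.142, or 0.00623 with the block). Its siCTRL replicate 3, at 57.8 TPM, stood apart from 144 and 139 TPM in the other two siCTRL libraries, and without it the adjusted p was 0.0395. With the library number as a term both passed, at -0.72 for HIST2H2AB and -1.79 for HIST3H2A, and HIST2H2AB passed against NT (-0.76). A difference between replicates can enter the estimates with that term, since siVPS37ABC shares only number 88 with siCTRL.

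The H2B genes differed most among themselves. HIST1H2BD, with the highest mean level, measured 3623, 3591 and 3663 TPM in siVPS37ABC, against 6127, 7459 and 6766 TPM in siCTRL. The siVPS37ABC libraries were nearly equal and far below siCTRL, with a log2 change of -0.90 ± 0.11 (SE, limma adjusted p 1.98e-06). HIST1H2BM measured 47.4, 45.2 and 23.3 TPM in siVPS37ABC, against 222, 211 and 170 TPM in siCTRL. No other core histone gene fell as far, with a log2 change of -2.41 ± 0.21 (limma adjusted p 8.11e-09), or of -3.61 against NT in place of siCTRL. HIST1H2BM also fell in siCTRL cells against NT cells, which had 618, 367 and 437 TPM.

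HIST1H2BK was the one tested gene with a positive change. It measured 506, 442 and 722 TPM in siVPS37ABC, against 359, 386 and 586 TPM in siCTRL. In each replicate number siVPS37ABC was the higher, but the ranges overlapped, and the log2 change of 0.33 ± 0.22 had a limma adjusted p of 0.316, or 0.0340 with the replicate block. It passed as a rise with the library number as a term (0.70, adjusted p 0.000817) and against NT (1.15, adjusted p 0.000454). RefSeq lists more than 1 mRNA for HIST1H2BK, and its gene overlaps HIST1H4I on the opposite strand, so that reads of the overlapping stretch may be shared. HIST1H4I itself fell, with 22.0, 16.7 and 7.63 TPM in siVPS37ABC, against 45.4, 38.1 and 35.0 TPM in siCTRL (log2 change -1.41, limma adjusted p 0.00128, or -2.18 with the library number as a term).

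HIST1H2BC, HIST1H2BJ, HIST1H2BL and HIST1H2BO had log2 changes of -0.96, -0.96, -1.22 and -0.91 that did not pass, with limma adjusted p of 0.112, 0.120, 0.142 and 0.0633. Their replicates spread widely. HIST1H2BL, for one, had 44.98, 26.1 and 17.9 TPM in siVPS37ABC, against 112, 65.8 and 38.1 TPM in siCTRL. In each replicate number the siVPS37ABC library was lower, and with the replicate block the adjusted p of the 4 genes were 0.000183, 0.00623, 0.00193 and 0.00228. With the library number as a term all 4 passed as well, with larger log2 changes of -1.80, -2.04, -2.41 and -1.60. These larger values cannot be told apart from a difference between replicates. The only number siVPS37ABC shares with siCTRL is 88, where its replicate 3 meets siCTRL replicates 1 and 2. The low genes HIST1H2BG and HIST1H2BN averaged 2.00 and 1.13 TPM in siVPS37ABC, against 3.27 and 1.95 TPM in siCTRL, a difference of few reads at this depth, and neither passed. HIST1H2BG passed without siVPS37ABC replicate 1 or siCTRL replicate 3 (adjusted p 0.0140 and 0.0394), and HIST1H2BN without siCTRL replicate 2 (0.0498). HIST1H2BG also passed against NT (-0.94, adjusted p 0.0237) and with the library number as a term (-0.92, adjusted p 0.0359).

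Among the H3 genes, HIST1H3B had the highest mean level, with 4351, 3673 and 3658 TPM in siVPS37ABC, against 8391, 10262 and 8157 TPM in siCTRL. The groups did not overlap (log2 change -1.20 ± 0.13, limma adjusted p 3.28e-07, or -0.68 against NT). HIST1H3J fell furthest, with 1549, 1376 and 1096 TPM in siVPS37ABC, against 5084, 4512 and 4322 TPM in siCTRL. Its highest siVPS37ABC library stayed far below the lowest of siCTRL (log2 change -1.80 ± 0.18, limma adjusted p 4.39e-08).

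The H3 genes HIST1H3E and HIST1H3D did not pass against siCTRL. HIST1H3E had 67.0, 54.2 and 46.4 TPM in siVPS37ABC, against 56.7, 71.9 and 53.4 TPM in siCTRL. Its groups overlapped and its log2 change was -0.12 ± 0.17 (limma adjusted p 0.663), but against NT it fell, with -0.50 (adjusted p 0.0306). In siCTRL against NT cells HIST1H3E had -0.38 (limma adjusted p 0.246). HIST1H3D had 12.9, 11.2 and 19.1 TPM in siVPS37ABC, against 10.5, 10.5 and 5.62 TPM in siCTRL. It was higher in every siVPS37ABC library than in any of siCTRL, at a log2 change of 0.65 ± 0.26 (limma without the filter, adjusted p 0.0725, or 0.0387 with the replicate block). With the library number as a term and against NT it passed as a rise, at 1.02 and 1.24. In siCTRL against NT cells HIST1H3D had 0.59 (limma without the filter, adjusted p 0.228). HIST1H3D overlaps HIST1H2AD on the same strand, and HIST1H2AD fell (log2 change -1.29), so the division of reads between both is uncertain.

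All 9 H4 genes fell. HIST1H4C, the highest of all 45 genes, measured 5256, 4862 and 3577 TPM in siVPS37ABC, against 10161, 9498 and 8459 TPM in siCTRL (log2 change -1.05 ± 0.13, limma adjusted p 2.21e-06). HIST1H4H fell furthest in this type, with 2771, 2123 and 1468 TPM in siVPS37ABC, against 7221, 6153 and 5025 TPM in siCTRL (log2 change -1.56 ± 0.19, limma adjusted p 1.12e-06). In neither gene did the groups overlap. HIST1H4A fell least, with 1432, 1254 and 1159 TPM in siVPS37ABC, against 1966, 2455 and 1723 TPM in siCTRL. The log2 change of HIST1H4A was -0.67 ± 0.21 (limma adjusted p 0.0251).

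The 34 falls did not all rest equally on every library. When each library of either group was left out in turn, 29 of them passed each time. HIST1H2AC was lost without siCTRL replicate 1 or 2 or siVPS37ABC replicate 2 or 3 (adjusted p 0.0988, 0.165, 0.0719 and 0.196), and HIST1H2AE without the same libraries (0.160, 0.0862, 0.0922 and 0.118). HIST1H4A was lost without the same 4 libraries as well (adjusted p 0.0503, 0.126, 0.0670 and 0.0837). HIST2H3D was lost without siCTRL replicate 1 or 3 or siVPS37ABC replicate 3 (0.0882, 0.0604 and 0.108), and HIST4H4 without siCTRL replicate 1 or 2 or siVPS37ABC replicate 3 (0.0619, 0.0695 and 0.0797). All of these changes kept their sign. Without siVPS37ABC replicate 1, HIST2H2AB, HIST1H2BJ and HIST1H2BO also passed (adjusted p 0.0126, 0.0374 and 0.0134). HIST4H4 was also lost against NT (-0.55, adjusted p 0.119) and with only the groups compared (0.0505), and HIST1H2AC after quantile normalization (0.0619). With the library number as a term HIST1H2AC had -1.12, against -0.68 without it.

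Genes were also grouped by place. In HIST1, neighbouring genes were split into 3 blocks wherever more than 20 non-histone genes lay between members. In siVPS37ABC cells, 17 of 19 tested genes of the first block, 3 of 5 of the second and 10 of 12 of the third fell, with median log2 changes of -1.02, -1.03 and -1.22. Summed levels were 47.9% of siCTRL in the first block, 50.7% in the second and 39.3% in the third. Outside HIST1, HIST2 stood at 58.6%, HIST3 at 45.4% and HIST4, with HIST4H4 alone, at 51.2%. Falls were thus found in all 4 clusters, which lie on different stretches of the genome.

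Partners of a head-to-head pair were compared because they share a promoter region. With starts under 1000 bases apart on opposite strands, 10 H2A and H2B pairs were found. Both partners fell in HIST1H2AJ and HIST1H2BM (log2 changes -1.59 and -2.41) and in HIST1H2AD and HIST1H2BF (-1.29 and -1.46). In HIST1H2AH and HIST1H2BK the partners had changes of opposite sign, -1.18 and 0.33. HIST1H2AH measured 2477, 2120 and 1750 TPM in siVPS37ABC, against 5168, 5555 and 3732 TPM in siCTRL, with no overlap. The plot of partner changes shows no other pair with opposite signs.

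Levels of partners were often far apart. HIST1H2AM averaged 4575 TPM over all libraries and its partner HIST1H2BO 49.7 TPM. HIST1H2AK averaged 256 TPM and its partner HIST1H2BN 1.55 TPM. In HIST1H2AC and HIST1H2BC the H2B gene was the higher, at 1864 TPM beside 605 TPM.

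**Figure D3:**
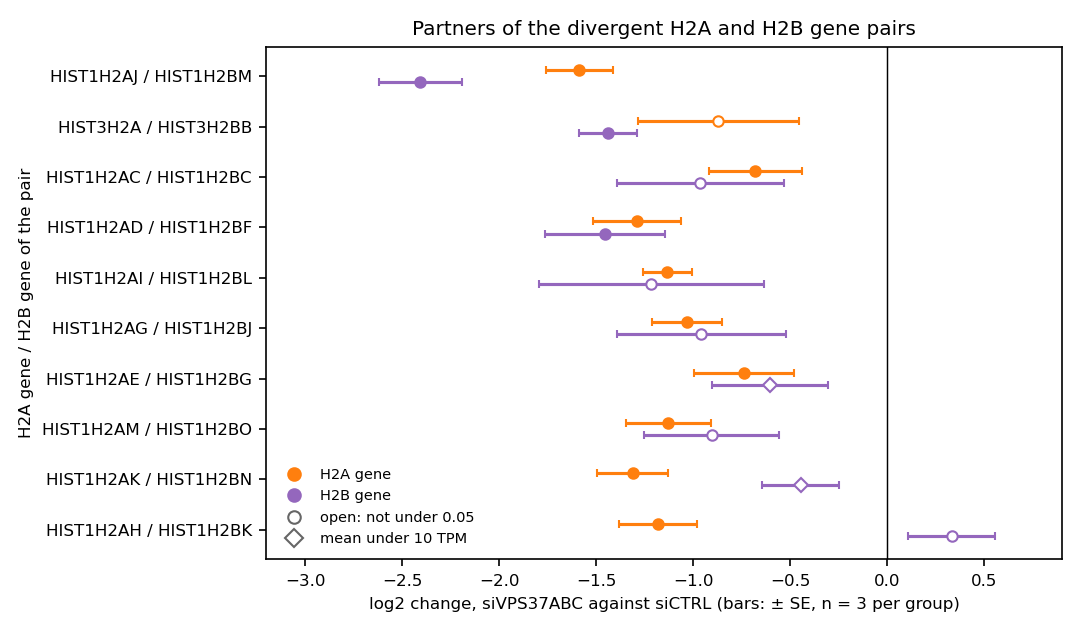
Log2 change in siVPS37ABC against siCTRL cells of both genes of each head-to-head H2A and H2B pair, with bars of ± SE (n = 3 per group). Filled points have an adjusted p under 0.05, and diamonds mark genes with a mean under 10 TPM. In the lowest row HIST1H2AH lies at -1.18 and HIST1H2BK at 0.33, on opposite sides of 0.

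RefSeq lists more than 1 mRNA for HIST1H2BC, HIST1H2BD, HIST1H2BK, HIST1H3D and HIST1H3E. Of the 4 of these that were tested, 1 fell in siVPS37ABC, HIST1H2BD, and their median log2 change was -0.51. Of the 38 tested genes with 1 listed mRNA, 33 fell, with a median of -1.17. In 7 genes known to give polyadenylated mRNAs outside S phase as well, a list written from general knowledge, 4 fell with a median of -0.90, beside 30 of the other 35 with a median of -1.20. HIST1H2BC, HIST1H2BD and HIST1H2BK are in both groups.

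Depletion of VPS37A alone gave the same direction at a smaller size. In siVPS37A cells 14 of the 42 genes fell and 0 rose, while 0.635% of all tested genes fell and 1.19% rose. The median log2 change was -0.62, beside 0.05 over all tested genes. Of the 42 changes 41 were below 0, as were 39.8% of those of all tested genes. With the replicate block 27 genes fell. For the block and for omitted libraries the share of all tested genes is not given. The count was 5 without siVPS37A replicate 1, 6 without siVPS37A replicate 3, 6 without siCTRL replicate 1 and 5 without siCTRL replicate 2.

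Of the 14 genes, HIST1H2BM, HIST1H3A, HIST1H3B, HIST1H3J and HIST1H2BD passed in every such omission in siVPS37A cells. HIST1H2BM measured 77.2, 77.5 and 79.5 TPM in siVPS37A, against 222, 211 and 170 TPM in siCTRL. The siVPS37A libraries were nearly alike and all below siCTRL (log2 change -1.34 ± 0.21, limma adjusted p 0.00126). HIST1H3B had a log2 change of -0.81 (limma adjusted p 0.00153) and HIST1H3J of -0.95 (limma adjusted p 0.00385). Against NT in place of siCTRL, HIST1H3B had -0.29 and HIST1H2BD -0.35, and neither passed (adjusted p 0.200 and 0.0599), while HIST1H2BM had -2.55. With only the groups compared, HIST1H3A, HIST1H3B and HIST1H2BD did not pass (adjusted p 0.0525, 0.0708 and 0.134).

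Depletion of VPS37B or VPS37C alone, or of both, gave no gene past the threshold among the 42 against siCTRL, though some passed under other models. In siVPS37B cells 0 of 42 passed in limma, while 1.72% of all tested genes changed. Before adjustment, 4 of 42 had a p under 0.05, 3 of them lower, a smaller share than the 16.1% of all tested genes. In siVPS37C cells 0 of 42 passed in limma, while 0.496% of all tested genes changed, and 5 genes had an unadjusted p under 0.05, all with negative changes, beside 8.08% of all tested genes in either direction and 4.44% lower. In siVPS37BC cells 0 of 42 passed in limma, while 1.29% of all tested genes changed, and 5 had an unadjusted p under 0.05, all negative, beside 12.4% of all tested genes in either direction and 4.91% lower. Median log2 changes were -0.03 in siVPS37B, -0.20 in siVPS37C and -0.21 in siVPS37BC. Of the 42 changes, 24 in siVPS37B, 36 in siVPS37C and 38 in siVPS37BC were below 0, beside 53.9, 49.4 and 45.6% of all tested genes. With the replicate block, 1 gene passed in siVPS37B, 0 in siVPS37C and 2 in siVPS37BC, all as falls. With the library number as a term, 1 fell in siVPS37B, 0 in siVPS37C and 9 in siVPS37BC. Against NT, 3 fell and 1 rose in siVPS37C, and 2 fell and 1 rose in siVPS37BC. For these other models the share of all tested genes is not given, so the counts have no background beside them.

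Pairs that included VPS37A resembled VPS37A alone in their direction. In siVPS37AB cells 29 of 42 genes fell and 0 rose, while 3.61% of all tested genes fell and 11.2% rose, and the median log2 change was -0.78. In siVPS37AC cells 19 of 42 fell and 0 rose, while 1.33% of all tested genes fell and 3.07% rose, and the median was -0.68. With the replicate block 31 fell in siVPS37AC, a count without the share of all tested genes under that model. Without siVPS37AC replicate 2 the count there was 11, and without siCTRL replicate 2 it was 12.

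HIST1H2BM was again the gene that fell furthest in both. It measured 61.3, 76.6 and 56.3 TPM in siVPS37AB and 74.2, 59.7 and 56.4 TPM in siVPS37AC, against 222, 211 and 170 TPM in siCTRL. Neither group overlapped siCTRL, and the log2 changes were -1.62 and -1.65, or -2.83 and -2.86 against NT. HIST1H2AJ, its partner, had log2 changes of -1.39 in siVPS37AB and -0.81 in siVPS37AC.

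**Figure D4:**
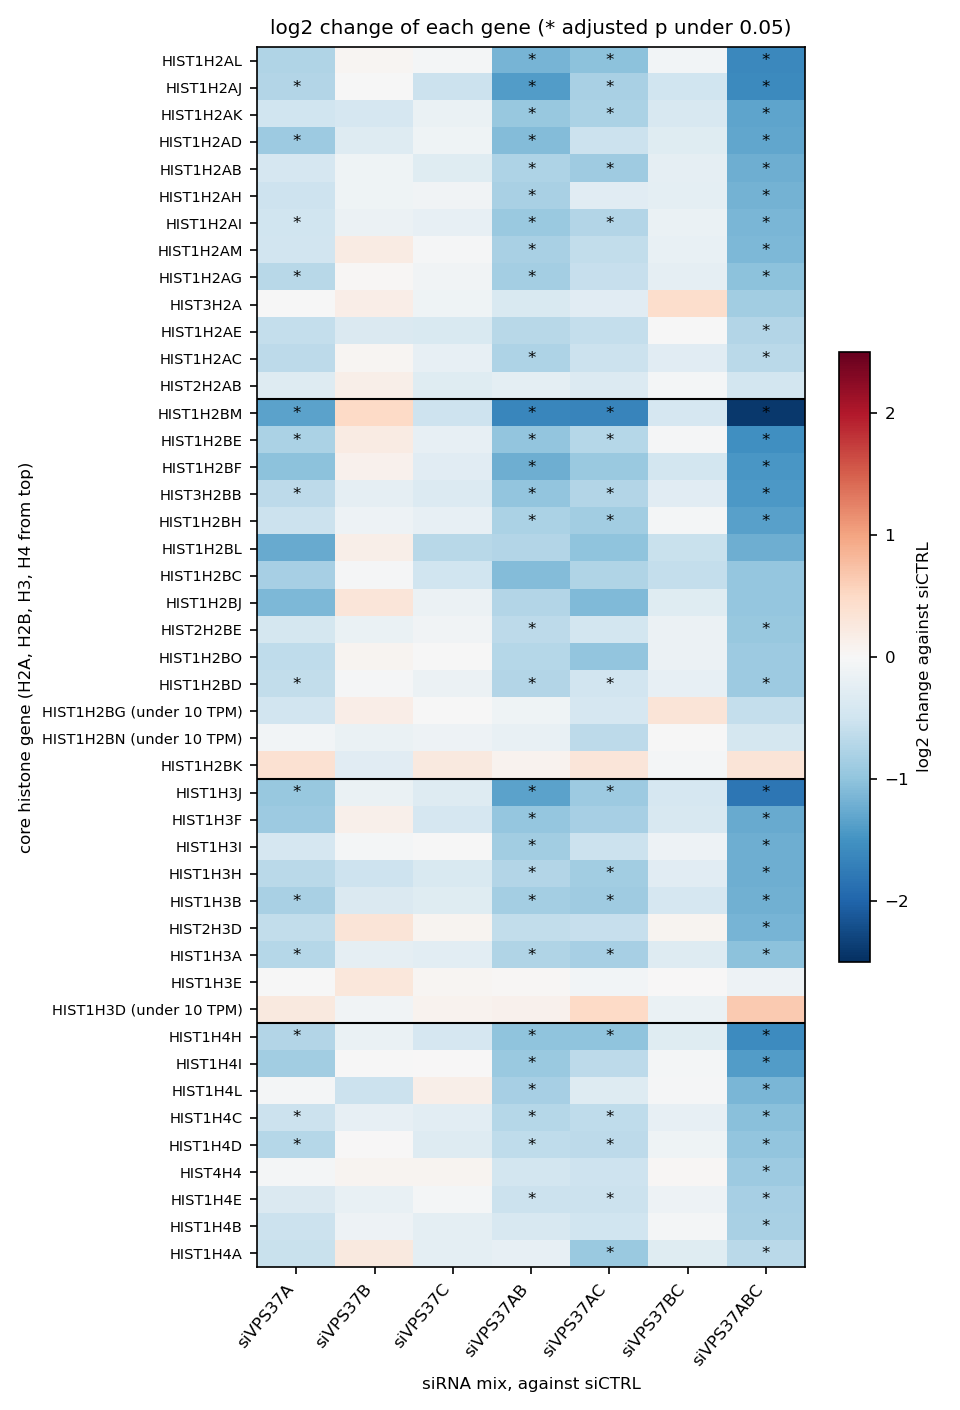
Log2 change against siCTRL of each of the 45 core histone genes (down the page, by type) in the 7 groups given VPS37 siRNA (across), where blue is lower and red higher than siCTRL and stars mark adjusted p under 0.05 among genes that passed the filter. Stars stand in the columns of siVPS37A (14), siVPS37AB (29), siVPS37AC (19) and siVPS37ABC (34) and in no other column. All columns share the siCTRL libraries.

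The triple depletion was set directly against the pairs, which does not use the siCTRL libraries. Against siVPS37BC, to which the triple adds the VPS37A siRNA, 31 of 42 genes fell and 0 rose in siVPS37ABC, while 4.55% of all tested genes fell and 7.46% rose. HIST1H2BM, with a log2 change of -1.99, and HIST1H2AL, with -1.53, fell furthest in this comparison. Among the 11 genes that did not pass were HIST1H2BK, at 0.38, and HIST1H3E, at -0.12.

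Against siVPS37AC, 8 of 42 genes fell and 0 rose in siVPS37ABC, while 1.89% of all tested genes fell and 2.46% rose. These were HIST1H3J, HIST3H2BB, HIST1H2AH, HIST1H2AJ, HIST1H2BE, HIST1H2BD, HIST1H2BM and HIST2H2BE, with log2 changes of -0.41 to -0.90. With the replicate block 21 fell, a count without the share of all tested genes under that model. Left-out libraries gave 3 (without siVPS37AC replicate 1), 4 (without siVPS37AC replicate 3) and 5 (without siVPS37AC replicate 2, siVPS37ABC replicate 2 or siVPS37ABC replicate 3). HIST1H3J and HIST3H2BB passed in every omission.

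Against siVPS37AB, 0 of 42 genes passed in limma, while 1.04% of all tested genes changed. Before adjustment 13 genes had a p under 0.05, all with negative changes, beside 8.95% of all tested genes in either direction and 5.76% lower. The median log2 change was -0.34, beside -0.04 over all tested genes. With the replicate block 5 fell, and 2 passed without siVPS37ABC replicate 1, both without a share of all tested genes beside them.

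Whether a pair differed from the sum of its single depletions was tested for the 3 pairs, though equal siRNA doses in these groups are not documented. No core histone gene passed in limma, and 0% of all tested genes passed, in the departure of siVPS37AB, of siVPS37AC or of siVPS37BC. Before adjustment 2 of 42 genes in siVPS37AB, 0 in siVPS37AC and 1 in siVPS37BC had a p under 0.05, shares no larger than the 7.48, 3.87 and 4.65% of all tested genes. Departures were below 0 in 31 of 42 genes in siVPS37AB, 16 in siVPS37AC and 21 in siVPS37BC. Of all tested genes, 42.4, 46.8 and 42.4% were below 0. Median departures of the 42 genes were -0.15, 0.19 and 0.02, and a shift of the genes as a set was not tested. The median SE of a departure was 0.29 for these genes and 0.21 for a change between 2 groups.

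Transfection with control siRNA altered few of these genes. In siCTRL against NT cells, 1 of 42 fell and 2 rose, while 2.17% of all tested genes fell and 1.01% rose. HIST1H2BM fell by 1.21 on the log2 scale (limma adjusted p 0.00130). HIST1H3B rose by 0.51 (adjusted p 0.0291), with 8391, 10262 and 8157 TPM in siCTRL, against 5910, 6982 and 5835 TPM in NT. HIST1H2BK rose by 0.82 (adjusted p 0.0434), with 359, 386 and 586 TPM in siCTRL, against 229, 229 and 281 TPM in NT. Without NT replicate 1, siCTRL replicate 2 or NT replicate 3, HIST1H2BM alone passed. HIST1H2BK was thus lowest in untransfected cells, and its mean was 364 TPM or more in every transfected group, siCTRL included.

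Other genes of the same processes were read from lists written with earlier results of these data known. Their counts in siVPS37ABC stand beside the 8.32% of all tested genes that fell. The 4 tested linker histone genes all fell in siVPS37ABC cells. HIST1H1D, a linker histone that binds DNA between nucleosomes, averaged 127 ± 22.6 TPM in siVPS37ABC, against 642 ± 108 TPM in siCTRL (SD, n = 3, log2 change -2.33). HIST1H1B, HIST1H1E and HIST1H1C had log2 changes of -1.57, -1.02 and -0.93, of which that of HIST1H1E did not pass without siCTRL replicate 1 (limma adjusted p 0.0585). Against NT, HIST1H1C had -0.51.

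Of 9 tested genes listed here as replication-independent histone variants, 5 fell and 0 rose in siVPS37ABC, with a median log2 change of -0.44. H2AFX was among the 5, and its log2 level followed the mean of the core genes with a Pearson r of 0.853 over the 27 libraries. H2AFV, a variant of H2A.Z type, averaged 247 ± 8.85 TPM in siVPS37ABC, against 411 ± 56.3 TPM in siCTRL (log2 change -0.73), but did not pass against NT (-0.32, limma adjusted p 0.131) and had -0.46 with the library number as a term. H1F0, a linker histone variant of non-dividing cells, had -0.88, and CENPA, the centromeric H3, had -0.44. CENPA did not pass without siVPS37ABC replicate 1 or siCTRL replicate 3 (limma adjusted p 0.0896 and 0.0862), or with only the groups compared (0.101). The median fall of the variants was smaller than that of the core genes, and this difference was not tested.

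Of 17 tested genes for transcription and processing of histone mRNA, 0 passed in limma, and 2 had an unadjusted p under 0.05, both lower in siVPS37ABC, beside 13.5% of all tested genes. SLBP averaged 161 ± 27.9 TPM in siVPS37ABC, against 224 ± 50.9 TPM in siCTRL, with a log2 change of -0.47 (limma adjusted p 0.103, or 0.00425 with the replicate block and 0.0449 after quantile normalization). CDK2, whose kinase drives entry into S phase, had a log2 change of -0.26 (adjusted p 0.0955, or 0.0485 with the block). Of 16 tested histone chaperones 2 fell, ASF1B (-0.81) and CHAF1B (-0.65), a share near that of all tested genes.

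Of 33 tested genes of DNA replication and S phase, 11 fell and 0 rose in siVPS37ABC, with a median log2 change of -0.39. RRM2, a subunit of ribonucleotide reductase, averaged 93.6 ± 25.8 TPM in siVPS37ABC, against 300.4 ± 66.2 TPM in siCTRL (log2 change -1.68). TYMS, GINS2 and CDT1 had log2 changes of -0.68, -0.70 and -0.70. In siVPS37A cells, where 14 core histone genes fell, 0 of these 33 genes passed in limma, with a median log2 change of -0.10. There 3 had an unadjusted p under 0.05, all lower, beside 13.2% of all tested genes in either direction and 3.47% lower. In siVPS37AB cells, where 29 core histone genes fell, 6 of the 33 fell and 0 rose, beside 3.61 and 11.2% of all tested genes. The median there was -0.28, and 14 had an unadjusted p under 0.05, all lower, beside 28.0% of all tested genes in either direction. In siVPS37AC cells, where 19 core histone genes fell, 1 of the 33 fell and 1 rose, beside 1.33 and 3.07% of all tested genes. RRM2 averaged 119 TPM in siVPS37C and 124 TPM in siVPS37BC, against 300.4 TPM in siCTRL, and was the only gene of this list that passed in these groups. It passed as a fall in every group given the VPS37C siRNA and in no other group given VPS37 siRNA. The share of cells in S phase was not measured, and its part in the histone changes was not tested.

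CDKN1A, the inhibitor p21 of cyclin-dependent kinases, averaged 92.9 ± 8.53 TPM in siVPS37ABC and 52.4 ± 1.09 TPM in siVPS37AB, against 13.6 ± 5.12 TPM in siCTRL (SD, n = 3). In siVPS37A cells CDKN1A averaged 19.7 ± 3.80 TPM and did not pass. Its log2 change in siVPS37ABC was 2.74 against siCTRL and 1.67 against NT. CDKN2C, another inhibitor of this kind, fell in siVPS37ABC (log2 change -1.16, or -0.68 with a pseudocount of 8). Among 7 tested inhibitors, these 2 were the ones that passed. HIST1H2BM averaged 78.1 TPM in siVPS37A and 38.6 TPM in siVPS37ABC, against 201 TPM in siCTRL.

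The genes whose log2 level followed the mean of the tested core histone genes most closely over the 27 libraries were HIST1H1B, HIST1H1E and HIST1H1D, with Pearson r of 0.955, 0.920 and 0.886. EGR1, an immediate early transcription factor, and TPX2, a spindle assembly factor, followed with 0.863 and 0.857. These are descriptions over libraries that share their groups and replicate numbers.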

How the data were processed

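The deposited table gives 10470 genes in 27 columns, after 2157 empty lines were left out. Per the submitters' processing notes, HTSeq 0.6.0, DESeq2 1.18.1 and hg19 were used, with no role stated. Each column sums to 1000000, so the deposited values were taken as TPM. Low values fell on whole read steps only once multiplied by the transcript length: a median of 60.5% of 200 low values per library lay within 0.1 of a whole number, where even spread gives 20%. Depths derived from these steps are approximate, and intervals for counting error are not given.

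On the scale of log2(TPM + 1), where changes of low genes are understated, values were fitted with limma 3.58.1 in R 4.3.3: 1 model of 9 group means, 18 residual degrees of freedom, a variance trend, a filter on means under 10 TPM and Benjamini-Hochberg adjustment within each of 14 comparisons. The code was tested on simulated data. Replicate numbers pair the libraries, since the labels call the number a batch. The main model leaves this pairing out, and the replicate block uses it. In siVPS37A, for instance, 14 genes passed in the main model and 27 with the block. Deviations from group means had a mean r of 0.355 for the same number and of -0.175 for different numbers, and 95 of 108 pairs exceeded 0.1. That the replicates come from separate cultures is not stated beyond the word biological, so p-values measure the spread between these samples. Alternatives were the replicate block, the library number as a term, the filter left out or set to 50 TPM, quantile normalization, a pseudocount of 8, fits of only the groups compared, NT replacing siCTRL, and the omission of each library. Motifs were sought in RefSeq promoters of GRCh38.p14, which was otherwise used for names and neighbours only, with Python 3.11.15 and pandas 2.3.3.

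The members and all lists were chosen with earlier results of these data known. All members may be named. Values per library are given for the members of each type with the highest mean level, the largest fall and the smallest fall or largest rise in siVPS37ABC, and of other lists up to 4 genes with the smallest p are named. HIST1H2AH, HIST1H2BL, HIST1H4I, HIST1H3D and HIST1H3E were given per library after their values were seen. Markers of other cell types were looked for: 0 of 4 fibroblast, 0 of 3 endothelial and 1 of 4 leukocyte markers had a row in the table as analysed here, the last with a median of 6.48 TPM.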

Additional observations from a re-analysis of the deposited data

How the results depend on the processing

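The counts of core histone genes past the threshold in siVPS37ABC and siVPS37AB against siCTRL and in siVPS37ABC against siVPS37BC stayed within 1.5 times under every alternative run, and every fall called in these kept its sign. With the replicate block, 27 genes passed in siVPS37A, 31 in siVPS37AC, 1 in siVPS37B, 2 in siVPS37BC, 5 in siVPS37ABC against siVPS37AB and 21 against siVPS37AC. With the library number as a term these were 25, 37, 1, 9, 3 and 22. With only the groups compared, 2 passed in siVPS37A and 1 in siCTRL against NT. With NT as reference, 4 passed in siVPS37C, 3 in siVPS37BC and 1 in the departure of siVPS37AC. The share of all tested genes past the threshold under each alternative is not given, so these counts have no background beside them. The causes were not tested.

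Over the omission of single libraries, the counts ran from 5 to 11 in siVPS37A, from 20 to 27 in siVPS37AB, from 11 to 18 in siVPS37AC, from 29 to 37 in siVPS37ABC, from 1 to 2 in siCTRL against NT, and, for siVPS37ABC, from 0 to 2 against siVPS37AB, from 3 to 12 against siVPS37AC and from 26 to 34 against siVPS37BC. Summed siVPS37ABC levels ran from 42.0 to 51.9% of siCTRL for H2A, from 50.01 to 55.3% for H2B, from 36.6 to 43.3% for H3 and from 43.4 to 52.3% for H4, and were 50.6, 56.1, 42.0 and 50.02% after quantile normalization, which moved the median change of all genes by -0.05. Of the changes that reversed, HIST1H3E, called in no omission, ran from -0.26 to 0.0058, with 0.0033 without siVPS37ABC replicate 3, and CCNE2 and E2F1 were 0.049 and 0.046 with the library number as a term, though CCNE2 passed as a fall with the replicate block (-0.57, adjusted p 0.0307) and E2F1 against NT (-0.52, adjusted p 0.0392).

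Depth limits HIST1H2BN, HIST1H2BG and HIST1H3D. Library numbers are not balanced over the groups, so that the library number as a term moved the estimates themselves, as of HIST1H2AC and HIST1H2AG (-1.12 and -1.37 in siVPS37ABC, against -0.68 and -1.03), whereas the replicate block left them unmoved and changed their errors.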
